A study of Mus musculus with 6 samples.

Results

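Acot1, Acot2, Acot3, Acot4, Acot5 and Acot6 are 6 acyl-CoA thioesterase genes that lie side by side on mouse chromosome 12, and their RNA was measured in the liver of control and cadmium-exposed mice. They were found by symbol and identifier, and all 6 were among the 55335 genes of the deposited FPKM table, a unit that divides the fragments of a gene by its length and by the library total. The group was picked with its cadmium against control difference in these same libraries already known, so that difference is given below as a description, without a test. Both groups were wild-type C57BL/6 mice that the labels call male, 6 to 8 weeks old per the labels, and both were dosed daily by gavage for 90 days. Control mice received 0 mg/kg/day and exposed mice 20 mg/kg/day of cadmium chloride, CdCl2, a soluble salt of a metal that accumulates in liver. The comparison asks how liver transcripts differ after this exposure. Each group had 3 libraries, and the labels assign 6 mice to each group without saying how mice map to libraries, so errors here measure the spread between libraries. The libraries are the input of an immunoprecipitation against N6-methyladenosine, a methyl mark on RNA, and the labels describe that input as the fragments left unbound, so abundance and the share bound cannot be told apart.

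Acyl-CoA thioesterases split a fatty acyl-CoA into a free fatty acid and coenzyme A, and so set how much of each is free in a compartment of the cell. The genes of the cluster encode closely related enzymes for different compartments: ACOT1 is cytosolic, ACOT2 is mitochondrial, and ACOT3, ACOT4, ACOT5 and ACOT6 are peroxisomal. In liver, several of them are induced by fasting and by fibrate drugs through the nuclear receptor PPARA, which also drives enzymes of fatty acid oxidation.

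The catalytic serine of these enzymes is shown first, because it marks what the 6 proteins share and how alike the genes are as targets of short reads. The sequences are from the GENCODE M21 coding transcripts (genome build GRCm38, which is mm10), 5′ to 3′, with the codon of the serine in capitals:
Acot1: gggattTCCaaaggg
Acot2: gggattTCCaaaggg
Acot3: ggcattTCCaaaggg
Acot4: ggtcttTCCctagga
Acot5: gggattTCCaaaggg
Acot6: ggtgtcTCCaaaggt
The serine is residue 232 in Acot1, Acot4, Acot5 and Acot6, residue 243 in Acot3 and residue 273 in Acot2. The proteins of Acot3 and Acot2 thus hold more residues before it, Acot2 the most. Acot1, Acot2 and Acot5 have the same 15 bases here. Over the whole coding sequence Acot1 and Acot2 were identical at 95.3% of aligned bases, Acot3 and Acot5 at 85.4%, and Acot1 and Acot3 at 83.9%. Acot4 was 72.8% to 74.3% identical to each of the others, and Acot6 was 73.6% to 76.0%.

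The stretches just before the transcription starts are shown for Acot1, Acot3, Acot4 and Acot5, the 4 members whose control and cadmium libraries did not overlap. Each is 250 bases of the plus strand ending at the base before the start, from RefSeq on GRCm38.p6, with matches to the motifs named below in capitals:
Acot1, chr12:84009252-84009501: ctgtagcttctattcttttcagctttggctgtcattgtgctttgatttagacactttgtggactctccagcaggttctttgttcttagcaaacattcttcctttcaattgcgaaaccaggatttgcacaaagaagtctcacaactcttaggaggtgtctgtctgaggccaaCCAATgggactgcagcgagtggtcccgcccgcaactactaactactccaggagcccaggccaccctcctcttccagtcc
Acot3, chr12:84051894-84052143: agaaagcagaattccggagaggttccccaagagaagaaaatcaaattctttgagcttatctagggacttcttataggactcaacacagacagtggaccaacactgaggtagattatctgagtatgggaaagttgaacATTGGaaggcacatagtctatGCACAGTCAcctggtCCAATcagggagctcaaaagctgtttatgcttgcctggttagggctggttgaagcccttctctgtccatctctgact
Acot4, chr12:84038129-84038378: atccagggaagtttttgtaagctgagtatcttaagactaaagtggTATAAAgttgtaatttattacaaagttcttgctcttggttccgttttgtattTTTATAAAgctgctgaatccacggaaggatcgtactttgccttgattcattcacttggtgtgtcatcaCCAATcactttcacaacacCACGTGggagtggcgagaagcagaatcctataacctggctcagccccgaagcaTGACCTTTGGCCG
Acot5, chr12:84069074-84069323: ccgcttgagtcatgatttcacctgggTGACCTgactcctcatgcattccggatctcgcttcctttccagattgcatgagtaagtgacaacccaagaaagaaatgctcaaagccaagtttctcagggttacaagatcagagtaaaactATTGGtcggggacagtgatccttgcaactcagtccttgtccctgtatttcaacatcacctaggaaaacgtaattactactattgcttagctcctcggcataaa
RefSeq promoter windows were matched for 5 of the 6 members, Acot2 at chr12:83987611-83987860 included. GC content was 48.8%, 50.4%, 45.2%, 42.4% and 44.8% in Acot1 to Acot5, against a median of 52.0% over 27025 windows of the same length.

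Motifs were searched on both strands, and a match describes letters and not a bound site. The CCAAT box (CCAAT) was present in all 5 windows and in 34.5% of all windows. Acot3 has 2 of them, on opposite strands. Acot4 held the most kinds of motif: the E-box CACGTG, which 6.05% of all windows hold, and 3 matches to TATAAA, held by 13%, of which 2 overlap each other on opposite strands. The nuclear receptor hexamer AGGTCA, in 13.8% of all windows, was found on the minus strand in Acot4 and Acot5, where the plus strand above reads TGACCT. A direct repeat of that hexamer with 1 base between (AGGTCANAGGTCA, up to 2 mismatches), the form that PPARA binds with its partner RXR, was found in Acot4 and in 3.18% of all windows. In Acot4 it covers bases 13 to 1 before the start as TGACCTTTGGCCG with 2 mismatches, and it overlaps the hexamer match. An antioxidant response core, TGANNNNGC, was found in Acot3 and in 35.1% of all windows. Letters of the metal response core (TGCGCNC or TGCACNC, in 21.3% of all windows), the D-box TTATGNAA (3.23%) and the heat shock unit GAANNTTC (6.78%) were not in any of the 5 windows.

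Libraries held 42115960 to 68587128 reads recovered from the deposited values. Xist, the transcript that silences an X chromosome in females, lay between 19.7 and 35.5 FPKM in all 6, and the Y-linked genes Ddx3y and Eif2s3y were listed at 0 in all 6, which goes against the label of male mice in both groups alike. Alb, the serum albumin transcript of hepatocytes, took 2.87% of reads in control replicate 1 and 2.91% in cadmium replicate 2, against 4.89% to 5.06% in the other 4 libraries. The members' log2 differences, their summed level and the calls named below are given with and without these 2 low-Alb libraries. The deposited tables gave 9908 genes an FPKM of at least 1 in at least 3 libraries. Of these, limma's test on log2(FPKM + 1) called 180 lower in cadmium (1.82%) and 779 higher (7.86%) at a Benjamini-Hochberg adjusted p of 0.05. The split was 298 lower and 347 higher with quantile normalization, 493 and 381 in the authors' log2 table, and 64 and 184 with the replicate number, which the labels give as batch, as a block. The median gene moved by 0.09 on the log2 scale in the FPKM fit, by -0.01 once quantile normalized and by -0.06 in the authors' log2 table.

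In the cadmium libraries the peroxisomal Acot3 and Acot4 and the cytosolic Acot1 stood lower than in the controls, by ratios of means between 2.08 and 2.97, and the weakly expressed peroxisomal Acot5 stood lower by 3.44. The mitochondrial Acot2 was lower on average with overlapping groups, and Acot6 was very low in both. Of the 5 members that reached the minimum level for the fit, 3 (Acot1, Acot3 and Acot4) were among the genes called lower and 0 among those called higher, where 1.82% of all tested genes were called lower. In 4 of the 5 every cadmium library lay below every control library, as in 7.24% of tested genes. Nothing is read from these counts, since the members were chosen on this contrast. In whole liver, fewer cells of a type and less RNA per cell cannot be told apart.

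**Figure D1:**
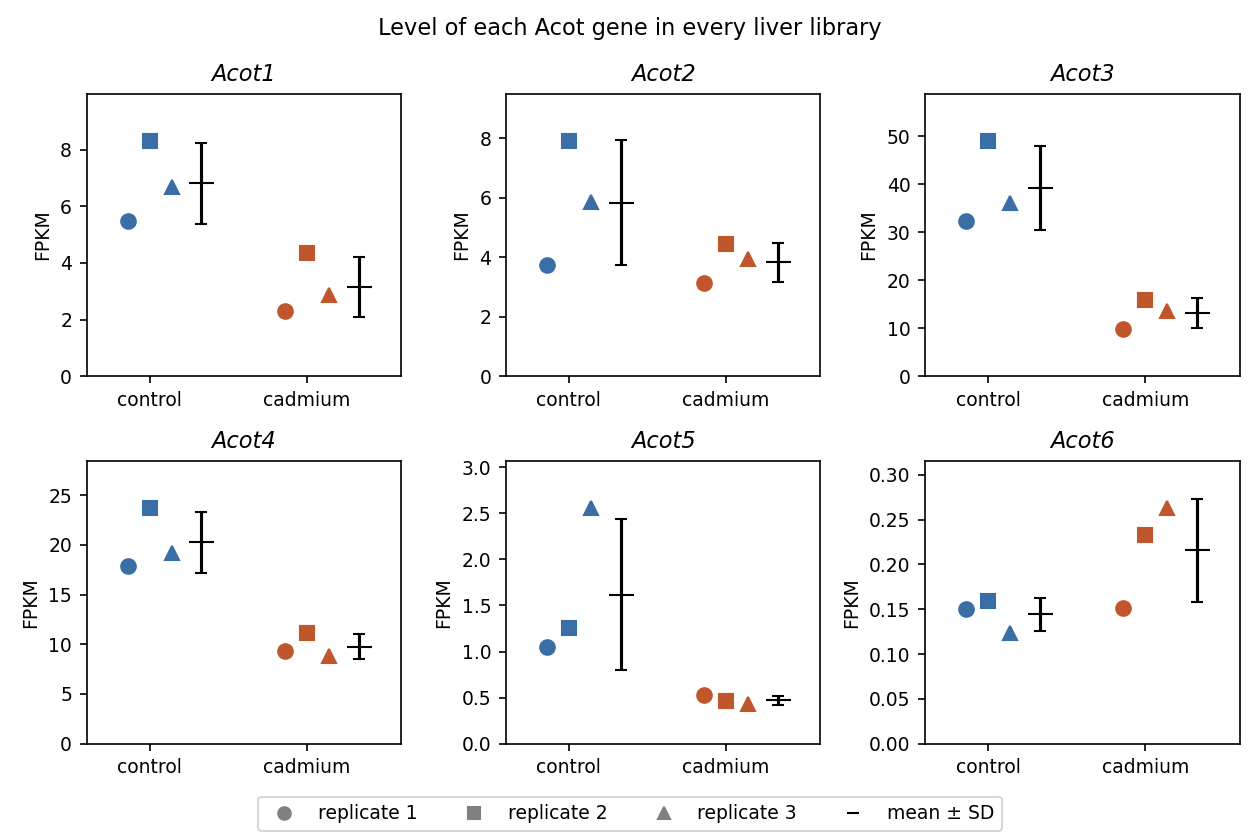
FPKM of each member in each library, 1 panel and 1 linear axis per gene, with symbols for replicates 1 to 3 and crossed bars for the group mean ± SD. Control and cadmium points separate for Acot1, Acot3, Acot4 and Acot5 and overlap for Acot2 and Acot6.

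Acot3, a peroxisomal thioesterase acting on medium- to long-chain acyl-CoA, was the most abundant member. Acot3 (ENSMUSG00000021228, chr12:84052144-84060402, plus strand) was at 32.4, 49.1 and 36.0 FPKM in control replicates 1 to 3 and at 9.91, 16.0 and 13.6 FPKM in cadmium replicates 1 to 3. The groups were far apart, with the highest cadmium library well below the lowest control. The means were 39.2 ± 8.77 and 13.2 ± 3.05 FPKM (SD, n = 3 each, as throughout), a ratio of control to cadmium of 2.97 and a log2 difference of -1.51 (SE 0.21). Log2 differences here are of log2(FPKM + 1), cadmium minus control, which understates the change of low genes. Within the batches that the labels number 1, 2 and 3, the control to cadmium ratios of Acot3 FPKM were 3.27, 3.07 and 2.64. Since the groups do not overlap, any pairing of libraries would point the same way. The depth was ample, from 1778 to 10343 reads.

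Acot4, whose enzyme hydrolyses succinyl-CoA and dicarboxylic acyl-CoA in peroxisomes, came next. Acot4 (ENSMUSG00000052392, chr12:84038379-84048601) was at 17.9, 23.7 and 19.2 FPKM in the controls and at 9.28, 11.2 and 8.79 FPKM in cadmium. The groups did not overlap, and the highest cadmium library, replicate 2, stayed below every control. The means of 20.3 ± 3.04 and 9.74 ± 1.26 FPKM gave a ratio of 2.08 and a log2 difference of -0.98 (SE 0.14). The ratio was 1.93, 2.12 and 2.18 in batches 1 to 3, and the values rest on 3233 to 9701 reads.

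Acot5, another peroxisomal member with preference for medium-chain acyl-CoA, was low throughout. Acot5 (ENSMUSG00000042540, chr12:84069325-84076020) was at 1.04, 1.26 and 2.56 FPKM in the controls and at 0.524, 0.461 and 0.428 FPKM in cadmium. Control replicate 3 stood above the other controls, and the cadmium libraries lay close together below all of them. The means were 1.62 ± 0.82 and 0.471 ± 0.049 FPKM, a ratio of 3.44. The log2 difference was -0.79 (SE 0.20) on log2(FPKM + 1) but -1.78 as the log2 of the ratio of mean FPKM, since the added 1 weighs heavily at this level. Acot5 met the minimum for testing only through its 3 control libraries, the group where it is higher, so its place among the tested and non-overlapping genes carries no weight. It rests on 113 to 205 reads in the controls and 42 to 60 in cadmium.

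Acot6, the remaining peroxisomal member and the last gene of the cluster, was barely present. Acot6 (ENSMUSG00000043487, chr12:84100654-84111349) was at 0.151, 0.159 and 0.124 FPKM in the controls and at 0.151, 0.233 and 0.263 FPKM in cadmium. Cadmium replicate 1 sat among the controls and the other cadmium libraries above them, so the groups overlap. The means of 0.144 ± 0.018 and 0.216 ± 0.058 FPKM put cadmium at 1.49 times control, the opposite side from the other 5, and at 1.46 times without the 2 low-Alb libraries. No library reached 1 FPKM, the gene was not tested, and 43 to 135 reads lie behind each value.

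Acot1, the cytosolic enzyme acting on long-chain acyl-CoA, differed by about as much as Acot4. Acot1 (ENSMUSG00000072949, chr12:84009490-84018371) was at 5.47, 8.32 and 6.67 FPKM in the controls and at 2.29, 4.35 and 2.86 FPKM in cadmium. The highest cadmium library, replicate 2, came near the lowest control, replicate 1, without reaching it, and these are the 2 libraries with the low Alb share. The means were 6.82 ± 1.43 and 3.16 ± 1.06 FPKM, a ratio of 2.15 and a log2 difference of -0.92 (SE 0.21). The difference was -1.25 without those 2 libraries. The ratio in batches 1 to 3 was 2.39, 1.91 and 2.34, and reads ran from 471 to 2001.

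Acot2, the mitochondrial counterpart of Acot1, showed the smallest gap of the 5 members above the minimum. Acot2 (ENSMUSG00000021226, chr12:83987861-83993873) was at 3.72, 7.92 and 5.84 FPKM in the controls and at 3.12, 4.43 and 3.94 FPKM in cadmium. The lowest control, replicate 1, fell among the cadmium libraries. The means of 5.83 ± 2.1 and 3.83 ± 0.66 FPKM gave a ratio of 1.52 and a log2 difference of -0.46 (SE 0.24), or -0.79 without control replicate 1 and cadmium replicate 2. The ratio was 1.19, 1.79 and 1.48 in the 3 batches, and reads ran from 358 to 1067.

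Without control replicate 1 and cadmium replicate 2 the log2 differences of the peroxisomal members were -1.77 for Acot3, -1.15 for Acot4 and -0.94 for Acot5. For Acot1 to Acot4 those were the lowest control and the highest cadmium library, so leaving both out had to widen the difference. The authors' deposited table gives log2 fold changes of -1.31, -0.73, -1.76, -1.23, -1.82 and 0.36 for Acot1 to Acot6. Its directions are those of the FPKM means for every member, but both rest on the same reads, so this is not separate evidence. Over the 14 other settings and library choices tried, the difference ranged from -1.77 to -1.33 for Acot3, from -1.23 to -0.87 for Acot4, from -1.31 to -0.77 for Acot1, from -0.79 to -0.24 for Acot2 and from -1.82 to -0.55 for Acot5. None of these fits put Acot1 to Acot5 higher in cadmium. How many members were called moved with the setting, from 4 with a pseudocount of 0.1 or with quantile normalization to 0 without the filter on low values and 0 without cadmium replicate 3.

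**Figure D2:**
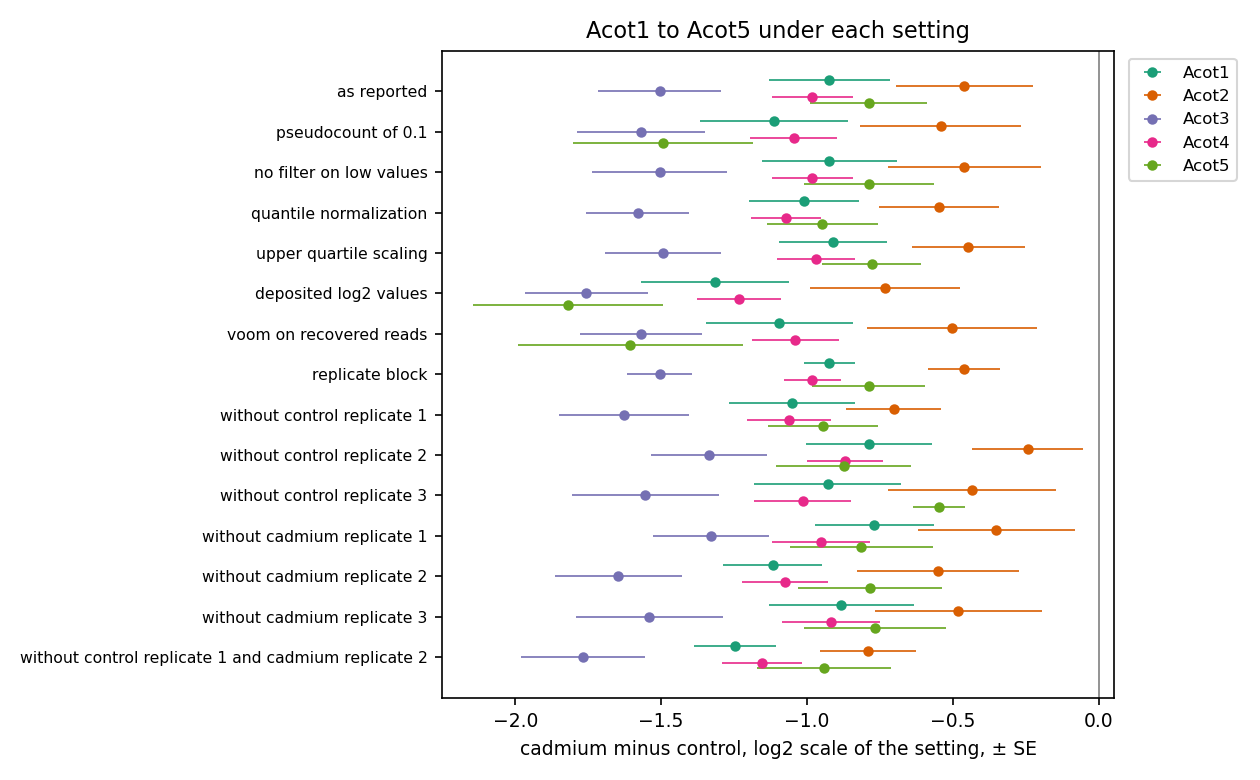
Log2 difference, cadmium minus control, of Acot1 to Acot5 under each processing setting and with each library left out, with bars of 1 SE. All points lie below 0, and Acot5 spreads the most, from -1.82 to -0.55.

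The order of the levels per gene length in the controls was Acot3, Acot4, Acot1, Acot2, Acot5 and Acot6. Acot3 and Acot4 did not overlap there, nor did Acot4 and Acot1, Acot2 and Acot5, or Acot5 and Acot6, while Acot1 and Acot2 overlapped. In cadmium Acot3 still had the highest mean, but its libraries overlapped those of Acot4, and the means of Acot2 and Acot1 had changed places with overlapping libraries. The summed FPKM of the 6 genes was 60.7, 90.4 and 70.3 in the controls and 25.3, 36.6 and 29.9 in cadmium. The mean sum was 73.8 ± 15.1 in the controls and 30.6 ± 5.69 in cadmium, a ratio of 2.41, with no overlap. Without control replicate 1 and cadmium replicate 2 the mean sums were 80.4 and 27.6, a ratio of 2.91. Those libraries held the lowest control sum and the highest cadmium sum, so leaving them out had to raise the ratio.

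The make-up of that sum differed as well. Acot3 made up 53.4%, 54.3% and 51.2% of it in the controls and 39.2%, 43.6% and 45.5% in cadmium, and its share was lower in every cadmium library. Acot2 made up 6.13%, 8.76% and 8.30% in the controls and 12.4%, 12.1% and 13.2% in cadmium, a higher share in each. Acot6 went from 0.200% ± 0.042 to 0.705% ± 0.152 of the sum, also without overlap. Acot1 was at 9.23% ± 0.24 and 10.2% ± 1.5, Acot4 at 27.6% ± 1.68 and 32.2% ± 3.93 and Acot5 at 2.25% ± 1.21 and 1.59% ± 0.43, and the share of each of these overlapped between groups.

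**Figure D3:**
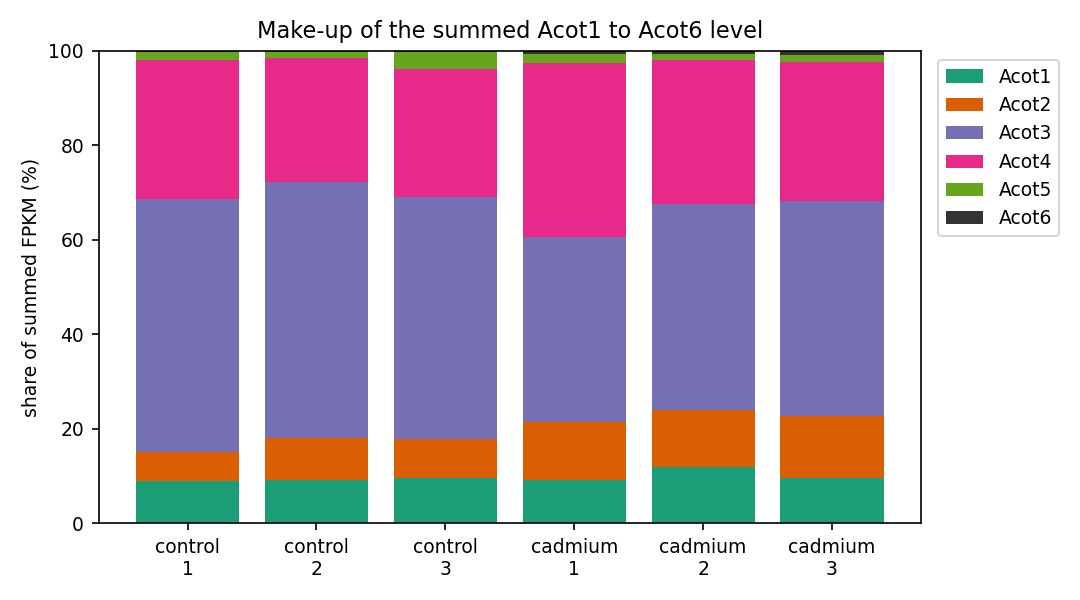
Share of the summed FPKM of Acot1 to Acot6 contributed by each gene, in percent, with 1 bar for each library. The Acot3 band is 51.2% to 54.3% of each control bar and 39.2% to 45.5% of each cadmium bar, and the Acot2 band is wider in cadmium.

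Ratios of 2 members within a library do not depend on its total. Acot3 over Acot4 was 1.81, 2.07 and 1.88 in the controls and 1.07, 1.43 and 1.55 in cadmium. The neighbouring genes thus stood closer together in every cadmium library. Acot1 over Acot2 was 1.47, 1.05 and 1.14 in the controls and 0.734, 0.981 and 0.724 in cadmium. Acot1 exceeded Acot2 in each control and was below it in each cadmium library. Acot4 over Acot1 overlapped between the groups, at 2.85 to 3.27 and 2.57 to 4.04. These ratios are from the contrast on which the genes were chosen and are a description of unequal change.

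The cluster spans 123489 bases, chr12:83987861-84111349 on GRCm38, with all 6 genes on the plus strand in the order Acot2, Acot1, Acot4, Acot3, Acot5 and Acot6. The gaps between neighbours are 15616, 20007, 3542, 8922 and 24633 bases. Acot4 and Acot3, the most abundant members, are thus the closest pair, and the least expressed gene is the farthest from its neighbour. The transcript used for each gene has 3 exons, except that of Acot3, which has 4.

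**Figure D4:**
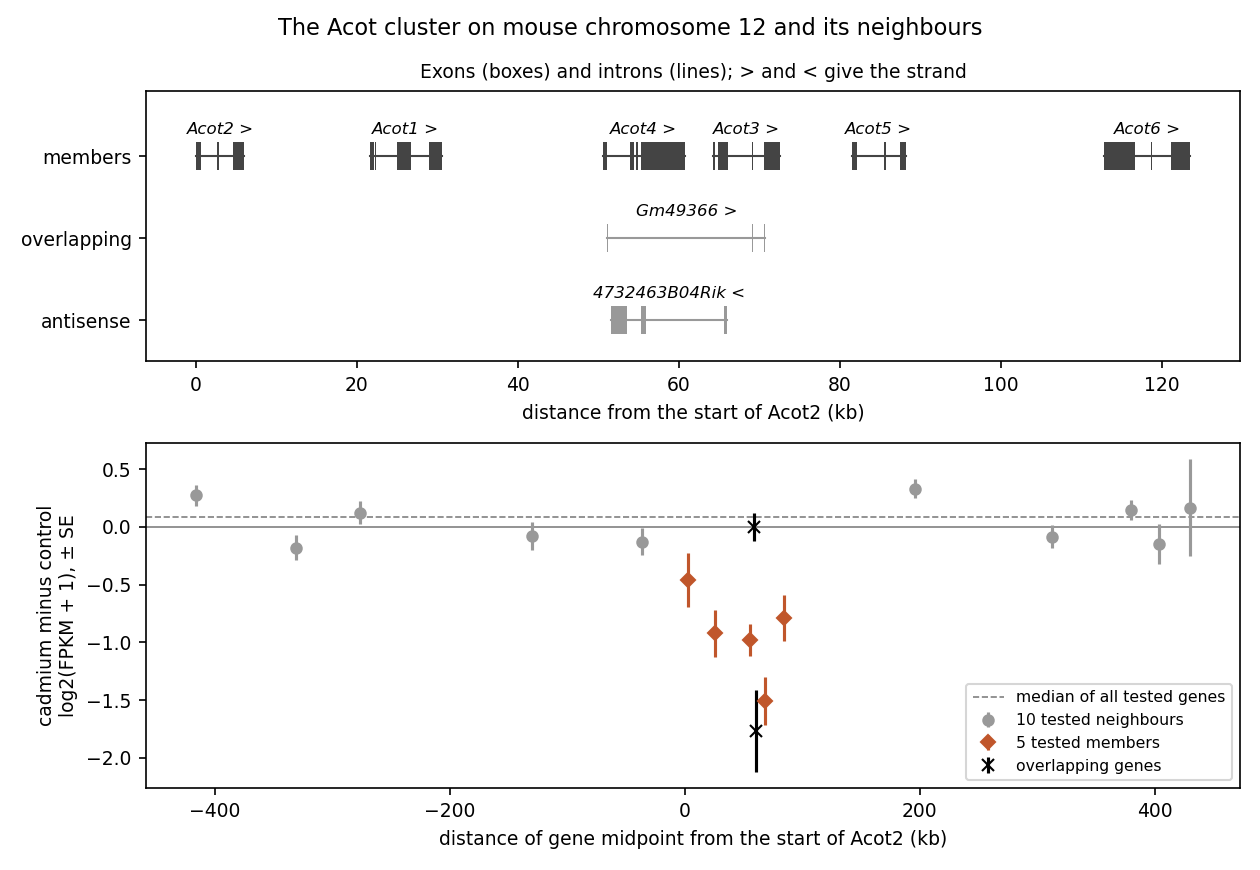
The cluster drawn to scale by distance from its first base, with exons and strands in the upper panel, and below it the log2 difference, cadmium minus control (± SE), of the 5 tested members, 10 tested neighbours and the overlapping genes by distance. The members lie between -1.51 and -0.46, Gm49366 at -1.77 and the neighbours between -0.18 and 0.33.

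A protein-coding model, Gm49366 (listed by the authors under the clone name AC133183.1), lies on the same strand across Acot4 and Acot3, and 100% of its 429 exon bases are also exon bases of those genes. It was at 31.5, 14.3 and 14.6 FPKM in the controls and at 4.56, 6.90 and 3.49 FPKM in cadmium, with a log2 difference of -1.77 (SE 0.36), which is given without a test because its bases are those of Acot3 and Acot4. Control replicate 1 stood well above the other controls. Each of those bases is shared with either Acot3 or Acot4, so reads within them can be given to Gm49366 or to that member. The rule the authors' counter used is not given in the sources used here. Adding its 102 to 955 reads per library to those of Acot3 changed the control to cadmium ratio of the mean share of library reads from 2.96 to 3.01. Acot3 shares 11.5% of its exon bases with a same-strand gene and Acot4 0.494%, while Acot1, Acot2, Acot5 and Acot6 share none. The antisense gene 4732463B04Rik overlaps both as well, with 31.6% of its exon bases. It was at 1.5 ± 0.37 FPKM in the controls and 1.48 ± 0.21 FPKM in cadmium (limma adjusted p = 0.995). Whether the counting used strand is not given in the sources used here.

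Reads can also fall in sequence that members share outright. Of all 150-base windows in the transcript, 12.4% of those of Acot1, 10.2% of Acot2, 2.74% of Acot3 and 3.36% of Acot5 occur unchanged in another member. For Acot6 the share was 0.309%, and for Acot4 it was 0. The longest identical stretch joined Acot1 and Acot2, at 273 bases, followed by 203 bases between Acot1 and Acot3 and 195 bases between Acot3 and Acot5. The split of reads between Acot1 and Acot2, and so their ratio above, is uncertain to that extent.

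The genes on either side of the cluster gave a local comparison. Among the 10 protein-coding genes on each side, 10 of 20 were tested, with 1 called higher and 0 lower, against 7.86% and 1.82% of all tested genes. Their log2 differences ran from -0.18 for Rbm25, a splicing factor, to 0.33 for Elmsan1, a component of a histone deacetylase complex. Elmsan1, which lies on the minus strand with its nearer end 37827 bases beyond Acot6, rose from 1.5 ± 0.03 to 2.16 ± 0.27 FPKM (SE 0.08, limma adjusted p = 0.0499), and no fit with 1 library left out kept that call (adjusted p from 0.0608 to 0.152), nor did the replicate block (0.109) or leaving out both low-Alb libraries (0.0779). The nearest tested gene before the cluster, Riox1, lay 34910 bases away at -0.13. Heatr4 and Dnal1, the genes adjoining the cluster, were too low to test.

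Thioesterases encoded elsewhere in the genome were set beside the cluster. Of 16 other acyl-CoA thioesterases, 12 were tested, with 1 called higher and 0 lower, against 7.86% and 1.82% of all tested genes, and their median lay -0.12 from that of all genes. The direction of the calls varied with the processing: quantile normalization, the authors' log2 table, leaving out control replicate 1 and leaving out both low-Alb libraries each gave 0 higher and 1 lower, and upper quartile scaling gave 1 and 1. Over all tested genes these fits called 298, 493, 242, 244 and 178 lower, in that order. The gene called lower in all of them was Them4, a mitochondrial thioesterase, chosen after its values were seen. Them4 was at 1.36, 2.16 and 2.62 FPKM in the controls and at 1.15, 1.08 and 1.16 FPKM in cadmium, without overlap (log2 difference -0.50, SE 0.15, limma adjusted p = 0.0808). Control replicate 1 was its lowest control, so leaving that library out had to widen the gap, and the difference was then -0.67. Acot12, a cytosolic acetyl-CoA hydrolase of liver, was at 22.8 ± 2.29 and 21.7 ± 5.34 FPKM (log2 difference -0.09, limma adjusted p = 0.796). Acot13, a small enzyme found at mitochondria, was at 24.0 ± 2.73 and 21.4 ± 2.84 FPKM (-0.16, limma adjusted p = 0.499). Both are as abundant as Acot4 in the controls. Acot8, a peroxisomal thioesterase of an unrelated fold, was at 4.28 ± 0.34 and 4.17 ± 1.12 FPKM (-0.05, limma adjusted p = 0.870). Acot7, a cytosolic long-chain enzyme prominent in brain, was at 6.99 ± 0.66 and 5.87 ± 0.54 FPKM (-0.22, limma adjusted p = 0.225). Acot11, which carries a lipid-binding START domain, was at 1.62 ± 0.39 and 1.42 ± 0.32 FPKM (-0.11, limma adjusted p = 0.654). Acot9, at 0.497 ± 0.189 and 0.729 ± 0.033 FPKM, was too low to test. The gene called higher was Ppt1, a lysosomal enzyme that removes palmitate from proteins, at 2.95 ± 0.35 and 4.16 ± 0.36 FPKM (log2 difference 0.39, SE 0.10, limma adjusted p = 0.0499). No fit with 1 library left out kept the Ppt1 call (adjusted p from 0.0654 to 0.190), nor did the replicate block (0.0705) or leaving out both low-Alb libraries (0.128).

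The PPARA program to which the cluster belongs was described from a list of 63 target genes without Acot1 to Acot6, of which 51 were tested. Of these, 1 was called lower and 1 higher, against 1.82% and 7.86% of all tested genes. Below the median of all genes lay 40 of 51, and the median of the 51 was -0.22 from it. The lean was not particular to this list. The same count was 7 of 8 for coenzyme A synthesis, 18 of 25 for mitochondrial oxidation, 15 of 21 for regulators and 18 of 27 for peroxisomal oxidation. It was 7 of 12 for other thioesterases, 9 of 21 for acyl-CoA synthetases and 5 of 10 for the neighbours. The mitochondrial and the peroxisomal list each share 11 genes with the PPARA list, so those counts are partly of the same genes. Pex11a, which promotes peroxisome division, fell from 9.90 ± 1.49 to 5.97 ± 1.27 FPKM (log2 difference -0.65, SE 0.16, limma adjusted p = 0.0430). Of the fits with 1 library left out, only the one without cadmium replicate 2 kept that call, and the highest adjusted p was 0.149, without cadmium replicate 3. Cyp2j6, a cytochrome P450 that oxidises fatty acids, rose from 6.23 ± 0.60 to 9.30 ± 0.58 FPKM (0.51, SE 0.10, limma adjusted p = 0.0240). Its adjusted p was 0.0579 with the replicate block and 0.112 without cadmium replicate 3, and the call was also lost without control replicate 2 or cadmium replicates 1 or 2. Without both control replicate 1 and cadmium replicate 2 the list had 9 genes called lower and 0 higher, with Pex11a among those lower (-0.85, limma adjusted p = 0.0281) and Cyp2j6 not called (0.0701). Without control replicate 1 alone it had 3 lower and 1 higher. It had 3 and 0 without cadmium replicate 2 alone, and 3 and 0 in the authors' log2 values. Over all tested genes, 244 were called lower and 478 higher without both libraries, and 242 and 539 without control replicate 1. The counts were 137 and 424 without cadmium replicate 2, and 493 and 381 in the authors' log2 values. Cyp4a14, a fatty acid omega-hydroxylase and classic PPARA target, was chosen after its values were seen, because it had the lowest log2 difference of the list. Cyp4a14 was at 85.4, 304 and 270 FPKM in the controls and at 40.6, 85.2 and 44.8 FPKM in cadmium (-1.81, limma adjusted p = 0.106). Its lowest control, replicate 1, came within a fraction of an FPKM of its highest cadmium library, replicate 2. These are the libraries with the low Alb share, so leaving both out had to widen the gap, and the difference was then -2.72.

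The regulators of the program were counted in the same way. Of 21 tested, 1 was called higher and 1 lower (7.86% and 1.82% of all tested genes), and their median lay -0.12 from that of all genes. Ppara itself was at 41.2 ± 2.17 and 38.9 ± 7.83 FPKM (log2 difference -0.10, limma adjusted p = 0.747). Hnf4a, a hepatocyte transcription factor, was at 107 ± 12.4 and 81.9 ± 10.04 FPKM (-0.38, SE 0.15, limma adjusted p = 0.161). Rxrg, a minor liver form of the RXR partner of PPARA, rose from 1.17 ± 0.20 to 2.18 ± 0.16 FPKM (0.55, SE 0.09, limma adjusted p = 0.0167), with 0.0792 without cadmium replicate 3 and 0.0505 without both low-Alb libraries. Foxo1, a transcription factor active in fasting, fell from 5.67 ± 0.23 to 4.00 ± 0.04 FPKM (-0.42, SE 0.08, limma adjusted p = 0.0216). The Foxo1 call was lost with the replicate block (0.0675), without control replicate 3 and without each cadmium library (up to 0.101, without replicate 3), and without both low-Alb libraries (0.0689).

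Peroxisomal oxidation, which handles the acyl-CoA that ACOT3, ACOT4 and ACOT5 meet, had 27 tested genes, 2 called lower and 1 higher (1.82% and 7.86% of all tested genes), and its median stood at -0.17 relative to all genes. Besides Pex11a, the gene called lower was Nudt19, a peroxisomal hydrolase that degrades coenzyme A and its esters. Nudt19 fell from 15.7 ± 1.65 to 10.1 ± 1.13 FPKM (log2 difference -0.59, SE 0.12, limma adjusted p = 0.0284). Its adjusted p was 0.0898 with the replicate block, and of the fits with 1 library left out only that without control replicate 1 kept the call (up to 0.0882, without cadmium replicate 3). Without both low-Alb libraries it was 0.0505. Eci3, a peroxisomal enoyl-CoA isomerase, rose from 0.695 ± 0.438 to 2.1 ± 0.44 FPKM (0.89, SE 0.19, limma adjusted p = 0.0364). Its adjusted p was 0.105 with the replicate block, and only the fit without control replicate 2 kept the call (up to 0.130, without cadmium replicate 3). Without both low-Alb libraries it was 0.0973.

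Mitochondrial oxidation and ketone synthesis are the pathways that use acyl-CoA in the compartment of ACOT2. This list had 25 tested genes and 0 calls by limma, against 7.86% higher and 1.82% lower over all tested genes. Its median stood at -0.16 relative to all genes. Over all genes 2674 passed an unadjusted p of 0.05. Acad9, an acyl-CoA dehydrogenase, was at 2.71 ± 0.48 and 3.89 ± 0.09 FPKM (log2 difference 0.41, limma adjusted p = 0.0587). Acyl-CoA synthetases and binding proteins make and carry the substrate of the thioesterases. They had 21 tested genes and 0 calls, against the same shares over all tested genes, and a median 0.04 above the overall one. Acsm1, a medium-chain synthetase, was at 72.4 ± 3.23 and 93.4 ± 9.10 FPKM (0.36, limma adjusted p = 0.126). Fabp1, the liver fatty acid binding protein, was at 595 ± 227 and 622 ± 46.4 FPKM (0.13, limma adjusted p = 0.805). Synthesis of coenzyme A, the other product of the reaction, had 8 tested genes and 0 calls, against the same shares over all tested genes. Its median stood at -0.11 relative to all genes. Slc25a42, the mitochondrial carrier of coenzyme A, was at 7.64 ± 0.28 and 9.25 ± 1.90 FPKM (0.23, limma adjusted p = 0.337), and Coasy, which catalyses the last steps of synthesis, at 26.6 ± 2.16 and 26.8 ± 2.01 FPKM (0.01, limma adjusted p = 0.971).

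Some genes are in more than 1 list: the PPARA list shares 11 with the mitochondrial list and 11 with the peroxisomal list. The 7 pathway lists together hold 136 distinct tested genes. Of these, 4 were called higher and 3 lower, against 7.86% and 1.82% of all tested genes. Their median stood at -0.13 relative to all genes.

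**Figure D5:**
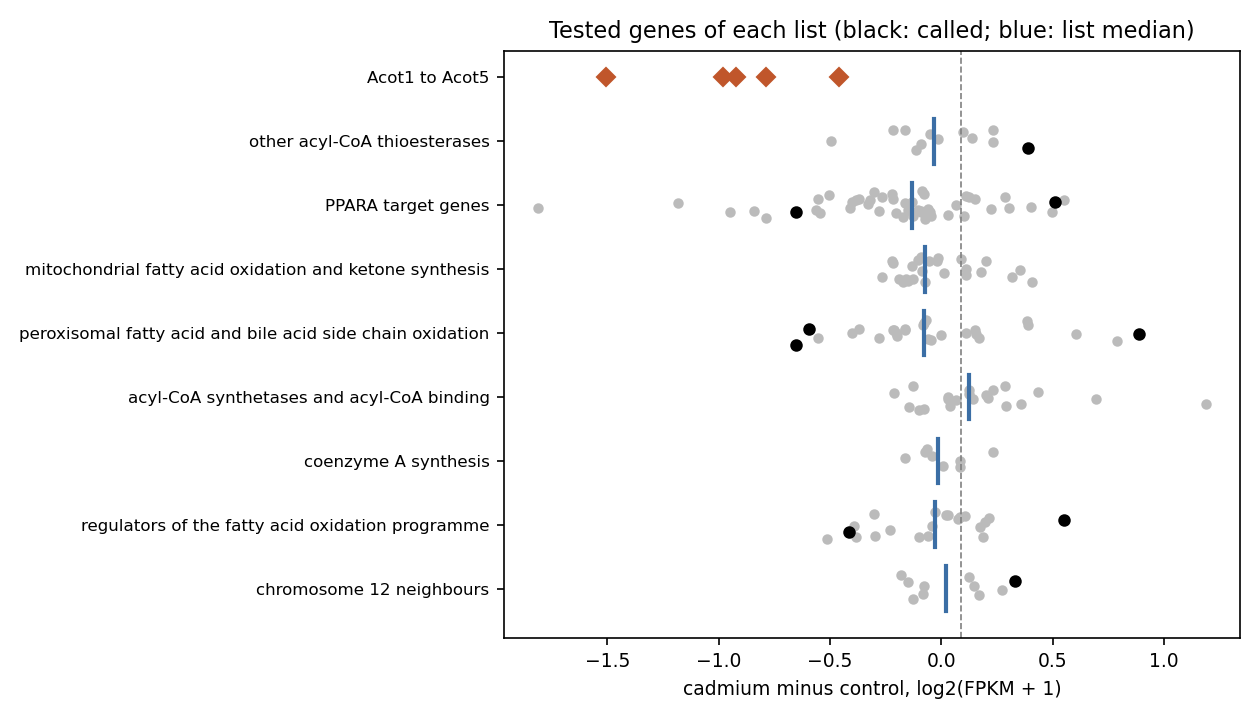
Log2 difference, cadmium minus control, of each tested gene in the 7 pathway lists and among the chromosome 12 neighbours, below Acot1 to Acot5, with called genes in black, list medians as blue bars and the median of all genes as a dashed line. Acot1 to Acot5, which were chosen on this contrast, lie between -1.51 and -0.46, and single PPARA targets reach -1.81.

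The pattern over libraries was also compared with that of other genes. The mean log2(FPKM + 1) of the 5 tested members was 3.05, 3.56 and 3.42 in the controls and 2.24, 2.62 and 2.39 in cadmium. Acot3, Acot1 and Acot4 followed this mean most closely, with Pearson r of 0.985, 0.981 and 0.979 over 6 libraries, and Acot2 and Acot5 less so, at 0.857 and 0.841. Each of these genes is part of the mean, which raises its own r, so nothing is read from these values. The mean also holds Acot5, which was tested only through its control libraries. Of 8821 other genes compared, 114 had r of at least 0.95. The 5 with the highest r were Dnaja1 (0.995), a heat shock protein 40 co-chaperone, Gde1 (0.994), a glycerophosphodiesterase, Rhbdd2 (0.994), a rhomboid-family membrane protein, Top1 (0.993), the DNA topoisomerase, and Mfsd2a (0.992), a carrier of lysophosphatidylcholine. Mfsd2a went from 32.1 ± 6.54 to 8.73 ± 2.64 FPKM and Dnaja1 from 13.6 ± 2.81 to 6.52 ± 0.90 FPKM. The 6 libraries share the group difference and their totals, so these correlations are a description only.

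Markers of liver cell types were set beside the cluster. Of 8 hepatocyte markers tested, 0 were called higher and 1 lower (Tat), against 7.86% and 1.82% of all tested genes. Their summed FPKM was 15336 to 23203 in the controls and 15438 to 23784 in cadmium. Most of that sum was Alb, at 10244 to 17478 and 10130 to 17899 FPKM, so it says little of the others. Of those, Tat, Cps1 and Hnf4a had lower means in cadmium, and Ttr, Apoa1, Apob and Asgr1 higher means. Stellate cell and fibroblast markers moved with the contrast: 5 of 6 tested were called higher, where 7.86% of all tested genes were. Their summed level was 12.8 to 20.1 FPKM in the controls and 30.2 to 34.3 in cadmium. Col1a1, 1 of those called, was at 0.852, 0.838 and 0.897 FPKM in the controls and 4.48, 3.02 and 4.29 in cadmium. It met the minimum only through the group where it is higher, so its call carries no weight. Kupffer cell and macrophage markers summed to 25.4 to 43.4 and 45.5 to 54.6 FPKM, with 2 of 7 called higher. That list was mixed: means of Clec4f, Cd5l, Adgre1, Csf1r and Cd68 were higher in cadmium, and those of Vsig4, Marco and Timd4 lower. Timd4, too low to test, was at 0.568 ± 0.165 FPKM in the controls and 0.091 ± 0.022 in cadmium, without overlap. Sinusoidal endothelial markers summed to 23.6 to 35.4 and 32.1 to 43.3 FPKM, with 1 of 7 higher. The part of these cell types in the differences of Acot1 to Acot5 was not tested. Cholangiocyte markers summed to 6.23 to 9.96 FPKM in the controls and 7.56 to 25.7 in cadmium, and lymphocyte markers to 0.837 to 1.69 and 1.33 to 1.88 FPKM. Intestine markers summed to 53.1 to 86.9 and 99.3 to 116 FPKM, with Apoa4, which liver also expresses, called higher, and pancreas markers to 1.18 to 2.05 and 1.48 to 1.76 FPKM. Adipocyte, heart and muscle, and kidney markers, 6 genes each from tissues that also express fatty acid oxidation genes, summed to at most 0.052, 0.118 and 0.0076 FPKM in any library. Plin1, Lep, Ucp1 and Retn of adipocytes and 5 of the 6 kidney markers were listed at 0 throughout.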

How the data were processed

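Liver input RNA of 3 control and 3 cadmium libraries was analysed. The submitters' processing notes name mm10, STAR 2.7.1a, cutadapt 1.1.8, DESeq2 4.1.0, SAMtools 1.3.1 and MACS2 2.1.1 without saying what each did. Neither the counter nor its annotation or strand setting is stated in the sources used here. The authors deposited a table of FPKM for 55335 genes and a table of log2 values for 34352 genes with symbols, group means, their own log2 fold change and their own p-value and FDR. The deposited p-values were not used. Undoing the deposited log2 values gave whole reads for 100% of values above 0, within 0.05 of a read, and these reads give the depths printed.

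The main comparison used limma 3.58.1 under R 4.3.3 on log2(FPKM + 1) (variance trend, robust moderation, two-sided). It covered 9908 genes that reached 1 FPKM in 3 or more of the 6 libraries, with Benjamini-Hochberg adjustment over all of them and a threshold of 0.05. The script was tested on simulated data. Replicate numbers are the batch in the labels, with 1 control and 1 cadmium library in each, so the pairing comes from the labels. Deviations from group means correlated at -0.21, -0.23 and -0.02 between same-numbered libraries. Alternatives were a pseudocount of 0.1, no filter, quantile and upper quartile scaling, the deposited log2 values, limma's voom on recovered reads, the replicate block and leaving out libraries. Leaving out control replicate 1 and cadmium replicate 2 together was chosen after seeing the data.

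The members and gene lists were chosen with earlier results of these data known. Named genes are all members, the other Acot genes, Ppara and Hnf4a, up to 4 called members of each list or neighbour group with the smallest p, and, where none was called, the gene with the smallest p and the gene with the highest mean FPKM. The 5 genes most like the members' mean pattern follow, passing over predicted genes. 1 gene that this rule names is not reported here. Gene positions, exons and coding sequences are from GENCODE M21 on GRCm38, and promoter windows from RefSeq on GRCm38.p6. Antibody-bound libraries were not analysed here.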

Additional observations from a re-analysis of the deposited data

How the results depend on the processing

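Acot1 to Acot5 stayed lower in cadmium in all 14 alternatives, but counts of calls moved. Genes called higher and lower numbered 31 and 6 without the filter on low values, 347 and 298 after quantile normalization, and 381 and 493 in the deposited log2 values. Without control replicate 1 and cadmium replicate 2 together, 478 were called higher and 244 lower. Leaving out 1 library gave 78 to 539 higher and 23 to 242 lower. With the replicate block there were 184 and 64, and the block left 0 calls among the other thioesterases, 1 among PPARA targets, 1 in peroxisomal oxidation, 1 among the regulators and 0 among the neighbours, with 3 members called as before.

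The members called numbered 0 without the filter and 0 to 4 with 1 library left out (0 without cadmium replicate 3). Other thioesterases had 0 calls with a pseudocount of 0.1, 0 without the filter and 2 with upper quartile scaling, and 0 to 1 with 1 library left out. PPARA targets had 0 without the filter, 9, all lower, without the 2 libraries together, and 0 to 4 with 1 left out. Mitochondrial oxidation had 1 with upper quartile scaling and 1 by voom. Peroxisomal oxidation had 0 without the filter, 1 without the 2 libraries, and 0 to 1 with 1 left out. The regulators had 0 without the filter, 1 after upper quartile scaling, 4 in the authors' log2 table, 1 without the 2 libraries, and 0 to 2 with 1 left out. The neighbours had 0 without the filter, after quantile normalization or upper quartile scaling, in the authors' log2 table, without the 2 libraries and with any 1 library left out. Acyl-CoA synthetases and coenzyme A synthesis had 0 calls in every alternative. The causes were not tested.

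Acot5 was -1.49 with a pseudocount of 0.1 and -1.61 by voom. Its read counts, and those of Acot6, limit what can be said of either gene. With 3 libraries a group, shared sequence between Acot1 and Acot2, and an input defined as unbound RNA, small differences between members cannot be settled.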
